A study of Mus musculus with 18 samples.

Results

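Syp, Sh3gl3, Slc22a2, Slco3a1, Slc16a5, Wnt10a and Ppm1h are 7 mouse genes with no classical immune role whose array signal differed between naive CD4+ T cells without the adaptor LAT and cells that kept it. They were chosen by symbol for that difference, and they are 7 of the 17062 named genes among 31623 features (genes and unnamed sequences) that were bright enough to test. The symbol of each was assigned through the RefSeq accession of its probe. The 7 genes are read by 9 probes, 3 of them for Ppm1h and 1 for each of the others. All 9 probes were well above background on all 18 arrays.

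RNA came from CD44low CD4+ T cells sorted from the spleens of 18 C57BL/6 mice, 1 mouse per single-colour Agilent array, with 3 mice in each of 6 groups. LAT KO mice (ERCre+ LAT f/- in the titles), Y136F mice (ERCre+ LAT f/m) and WT mice (ERCre- LAT f/-) had each received tamoxifen for 1 week or for 4 weeks. Tamoxifen activates the ER-fused Cre, which removes the floxed (f) copy of Lat. This leaves LAT KO cells with no intact copy, Y136F cells with a copy that encodes phenylalanine in place of a tyrosine (Y136F), and WT mice, where the Cre is absent by the titles, with 1 intact copy. All groups received tamoxifen, and LAT KO and WT mice both carried only 1 floxed copy before it. The series description says instead that all mice carried the Cre, and gives the Y136F mice as Y136F/-. The promoter that drives the Cre, the share of cells in which it acted and the ages of the mice are not given in the sources used here.

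LAT is a membrane adaptor of the T cell receptor pathway. Its phosphorylated tyrosines recruit signalling proteins, and the one changed in Y136F is known to bind phospholipase C-gamma 1, which opens the calcium and protein kinase C branches. Naive T cells receive weak, continuous receptor signals from self ligands, called tonic signals, and LAT carries these as well as the strong signals of activation. Synaptophysin (Syp) is an abundant membrane protein of synaptic vesicles, and Sh3gl3 encodes endophilin A3, which bends membranes during vesicle uptake. Slc22a2, Slco3a1 and Slc16a5 belong to the organic cation, organic anion and monocarboxylate transporter families. Wnt10a is a secreted Wnt ligand best known from skin and teeth, and Ppm1h is a serine/threonine phosphatase of the PP2C family that acts on Rab GTPases.

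Because Syp, Sh3gl3 and Slc22a2 were low together in both mutants, as described further on, their promoters are shown, with that of Ppm1h, which was not. RefSeq (GRCm38.p6) gave a promoter for these 4 of the 7 genes, each 300 bases on the + strand from 250 before the gene's start to 50 after it, written 5′ to 3′. The Syp window is chrX:7638330-7638629, the Sh3gl3 window chr7:82174546-82174845, the Slc22a2 window chr17:12583939-12584238 and the Ppm1h window chr10:122678512-122678811. Capitals mark matches, on either strand, to motifs of factors that receptor signals act on.
Syp: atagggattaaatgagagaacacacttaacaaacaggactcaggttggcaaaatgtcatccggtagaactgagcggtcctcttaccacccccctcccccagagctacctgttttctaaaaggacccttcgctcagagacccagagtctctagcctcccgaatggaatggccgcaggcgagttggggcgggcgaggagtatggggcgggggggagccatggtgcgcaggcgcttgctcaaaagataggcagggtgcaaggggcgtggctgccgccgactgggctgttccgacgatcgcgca
Sh3gl3: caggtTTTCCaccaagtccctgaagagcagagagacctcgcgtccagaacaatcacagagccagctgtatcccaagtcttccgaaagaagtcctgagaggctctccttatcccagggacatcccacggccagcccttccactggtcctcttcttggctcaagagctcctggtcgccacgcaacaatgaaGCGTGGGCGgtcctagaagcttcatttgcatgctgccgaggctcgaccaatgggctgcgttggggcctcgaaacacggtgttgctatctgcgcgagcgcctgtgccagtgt
Slc22a2: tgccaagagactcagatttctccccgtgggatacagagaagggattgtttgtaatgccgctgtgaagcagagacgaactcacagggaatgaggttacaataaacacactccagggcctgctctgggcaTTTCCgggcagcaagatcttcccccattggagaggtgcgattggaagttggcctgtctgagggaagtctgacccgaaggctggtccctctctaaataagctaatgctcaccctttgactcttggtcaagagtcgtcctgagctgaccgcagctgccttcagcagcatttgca
Ppm1h: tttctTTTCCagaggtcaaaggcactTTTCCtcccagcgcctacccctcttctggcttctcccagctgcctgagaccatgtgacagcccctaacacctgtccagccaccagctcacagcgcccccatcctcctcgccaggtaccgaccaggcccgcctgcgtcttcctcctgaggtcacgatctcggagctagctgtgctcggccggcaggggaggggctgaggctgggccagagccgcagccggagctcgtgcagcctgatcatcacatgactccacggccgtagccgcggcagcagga
The EGR letters GNGTGGGNG occurred at 1 place, in Sh3gl3 at position -61 from the start, and are held by 14.3% of 32851 promoters of this length. The NFAT core GGAAA, which 61.3% of promoters hold, occurred at 1 place in Sh3gl3, 1 in Slc22a2 and 2 in Ppm1h, on the opposite strand each time. The AP-1 letters TGANTCA (7.81% of promoters) and the IRF letters GAAANNGAA (8.56%) were in none of the 4 windows, and the Syp window held none of the 4 motifs. No capitals overlap between motifs.

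Signals are given as scaled log2 intensity, the log2 of a probe's background-corrected signal minus the 75th percentile of its array, so that 0 is the brightness of the probe at that percentile and 1 unit is a doubling. The percentile lay between 1124 and 1896 intensity units, and 84.2% to 97.9% of spots per array were well above background. All 7 CD4 T cell markers checked (Cd3d, Cd3e, Cd3g, Cd4, Cd5, Cd28 and Lat) were well above background on all 18 arrays. They summed to between 95.2 and 137 times the 75th percentile. The 6 NK cell markers summed to 19.4 to 21.5 times the 75th percentile on the Y136F arrays of 4 weeks, and to 4.84 to 16.6 times on the arrays of the 5 other groups. The 10 myeloid markers measured, of 11, summed to 2.73 to 5.71 times the 75th percentile on those Y136F arrays, 2.68 to 3.53 times on Y136F arrays of 1 week and 2.97 to 4.48 times on WT arrays of 4 weeks. The 8 neuron markers summed to 1.41 to 2.30, 1.18 to 1.38 and 2.21 to 3.08 times in the same groups. The 9 B cell markers summed to 4.75 to 14.5 times on LAT KO arrays of 1 week and 4.55 to 11.4 times on those of 4 weeks. For Y136F arrays the B cell sums were 6.05 to 9.17 at 1 week and 7.78 to 12.3 at 4 weeks. For WT arrays they were 4.50 to 5.52 and 7.07 to 9.17. In Y136F cells at 4 weeks against 1 week, 4 of 6 NK, 4 of 10 myeloid and 1 of 8 neuron markers rose. No marker of these lists fell (limma, adjusted p under 0.05), and 7.67% of all features passed in that comparison. Among the markers that rose were Eomes (log2 difference 2.46), S100a8 (4.29), S100a9 (2.33), Adgre1 (1.28), Csf1r (1.44) and Map2 (3.25). S100a8 was well above background on only 9 of 18 arrays and Map2 on only 8, so their differences involve values near background. Eomes (2.62) and S100a8 (2.99) also rose in Y136F against WT at 4 weeks, and Eomes (-2.04), Klrb1c (-0.89), S100a8 (-3.23) and S100a9 (-1.87) were lower in LAT KO against Y136F at 4 weeks. These are the comparisons in which most calls of the 7 genes lie, and the part of other cells in them was not tested. In bulk RNA, fewer cells with a transcript and less transcript per cell cannot be told apart. Nothing in the labels says that mice shared a litter or a sort. The labels give female for each of the 6 Y136F mice and male for the LAT KO and WT mice of 4 weeks. Sex-linked genes went against the label on 2 arrays, LAT KO replicate 1 at 1 week and LAT KO replicate 2 at 4 weeks. Among arrays with a male pattern, the sex-linked gene Xist was intermediate on LAT KO replicate 3 (-3.74) and WT replicate 3 (-3.98) of 1 week, both on slide 1. On the other arrays of male pattern Xist was between -9.30 and -7.03.

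Lat itself, the targeted gene, was lowest in LAT KO cells. Its scaled log2 intensity at 1 week was 2.32 and 2.73 in LAT KO cells (the spot of replicate 2 was an outlier and left out), 4.26, 4.17 and 4.32 in Y136F cells, and 2.75, 3.47 and 3.37 in WT cells. At 4 weeks it was 3.16, 2.62 and 2.34 in LAT KO, 4.43, 3.86 and 3.93 in Y136F, and 3.29, 3.62 and 3.85 in WT. LAT KO arrays were below all WT arrays of the same time, by a mean of 0.67 at 1 week and 0.88 at 4 weeks on the log2 scale, and Y136F arrays were above them. The exons removed, and whether the Lat probe lies in them, are not given in the sources used here.

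LAT KO against WT chose the 7 genes, so their levels in these groups are a description and carry no test. Syp, Sh3gl3, Slc22a2 and Wnt10a were low in LAT KO cells relative to WT at both times, and Slco3a1 and Slc16a5 were high. Ppm1h was higher at 4 weeks. At 1 week LAT KO and WT arrays did not overlap for 6 of the 7 genes, all but Ppm1h, and at 4 weeks for 7 of 7. The same held for 3.71% of all features with 6 measured values at 1 week and for 23.2% at 4 weeks, and nothing is read from the counts, since this contrast chose the genes. Without the 2 LAT KO arrays whose sex-linked genes go against the label, LAT KO minus WT at 4 weeks was -1.64 for Syp, -1.0 for Sh3gl3, -1.34 for Slc22a2 and -1.39 for Wnt10a, and 1.25 for Slco3a1, 1.08 for Slc16a5 and 0.91 for Ppm1h. With them it was -1.64, -1.13, -1.50 and -1.41, and 1.26, 1.27 and 1.05, for the same genes. Over all features, 0.019% passed an adjusted p of 0.05 in this contrast at 1 week and 0.0983% at 4 weeks (limma).

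Y136F against WT, LAT KO against Y136F, and 4 weeks against 1 week were tested with limma across all features, with Benjamini-Hochberg adjusted p-values and a threshold of 0.05. Y136F against WT uses the WT arrays, and LAT KO against Y136F the LAT KO arrays, through which the genes were chosen, so neither is independent of that choice. Of the tests, only Y136F at 4 weeks against Y136F at 1 week compares arrays that the choice did not use. Its SE and p still draw on the spread over all 18 arrays, those of LAT KO and WT among them. The mice it compares were all female by the labels. In Y136F against WT, 1 of the 7 genes passed at 1 week, beside 0.0158% of all features, and 4 passed at 4 weeks, beside 3.4%. In LAT KO against Y136F none of the 7 passed at 1 week, when no feature did (0% of 31533, with 1804 at an unadjusted p under 0.05), and 4 passed at 4 weeks, beside 3.38%. Between times, 3 of the 7 genes passed in Y136F cells, beside 7.67% of features. In LAT KO cells and in WT cells none of the 7 and 0% of features passed by limma, with 183 and 6099 features at an unadjusted p under 0.05.

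**Figure D1:**
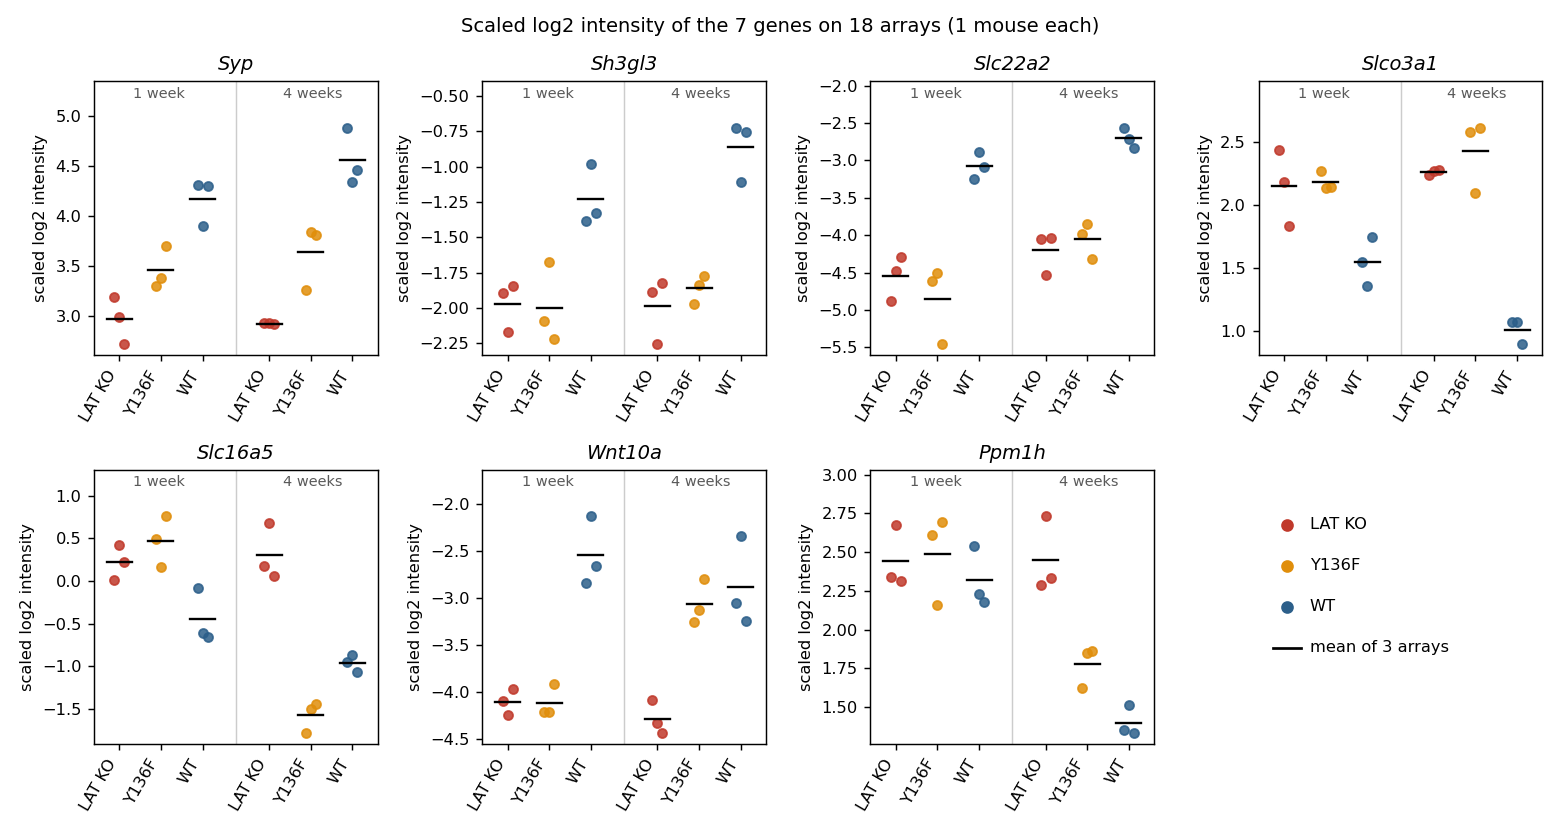
Scaled log2 intensity (vertical axis, 0 is the array's 75th percentile) of each of the 7 genes in LAT KO, Y136F and WT cells after 1 week (left) and 4 weeks (right) of tamoxifen. Points are arrays of 1 mouse each and bars are means of 3. Syp, Sh3gl3 and Slc22a2 lie below WT in both mutants, Slco3a1 lies above WT, the Y136F points of Slc16a5 lie above WT at 1 week and below WT at 4 weeks, and those of Wnt10a overlap WT at 4 weeks but not at 1 week.

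Syp had its lowest mean in LAT KO, an intermediate one in Y136F and its highest in WT cells at both times. At 1 week its scaled log2 intensity was 3.19, 2.99 and 2.71 in LAT KO cells, 3.29, 3.37 and 3.70 in Y136F cells, and 4.31, 3.90 and 4.30 in WT cells. At 4 weeks it was 2.93, 2.92 and 2.91 in LAT KO, 3.26, 3.84 and 3.81 in Y136F, and 4.89, 4.34 and 4.46 in WT. At each time all LAT KO arrays were below all Y136F arrays, and all of these were below all WT arrays. The LAT KO mean was 2.30-fold below WT at 1 week and 3.12-fold below it at 4 weeks.

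Syp fell in Y136F cells against WT at 4 weeks, with a log2 difference of -0.92 ± 0.19 (SE; adjusted p = 0.00954, limma), in 3 of 3 arrays. At 1 week the difference was -0.71 ± 0.19 and did not pass (adjusted p = 0.295). LAT KO cells were lower than Y136F cells by 0.71 ± 0.19 on the log2 scale at 4 weeks (adjusted p = 0.0478), just past the threshold, while the difference of -0.49 at 1 week did not pass (adjusted p = 0.857). Syp did not pass between times in any genotype, and the 95% interval of the change in LAT KO cells ran from -0.45 to 0.36. The Y136F call was lost without Y136F replicate 1 of 4 weeks (adjusted p = 0.0619), and that of LAT KO against Y136F without any of 5 arrays (0.117 to 0.238), Y136F replicate 1 being the exception. The Y136F call was also lost with quantile normalization (-0.72, adjusted p = 0.0681) and the authors' deposited log2 values (-0.73, 0.0906), and that between mutants held under 3 of 20 alternative settings. Within slides 2, 3 and 4, Y136F minus WT at 4 weeks was -0.50, -0.65 and -1.63, and within slides 3 and 4 LAT KO minus Y136F was -0.90 and -0.33.

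Sh3gl3 was lower in both mutants than in WT cells. Its scaled log2 intensity at 1 week was -1.90, -2.17 and -1.84 in LAT KO, -2.10, -1.68 and -2.22 in Y136F, and -1.38, -0.98 and -1.33 in WT. At 4 weeks it was -1.89, -2.26 and -1.82 in LAT KO, -1.97, -1.84 and -1.77 in Y136F, and -0.72, -1.11 and -0.75 in WT. The mutant arrays overlapped each other and all lay below the WT arrays of their time. Against WT, the LAT KO mean was 1.67-fold lower at 1 week and 2.19-fold lower at 4 weeks.

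Sh3gl3 fell in Y136F cells against WT at 4 weeks (log2 difference -1.0 ± 0.19, SE, adjusted p = 0.00495, limma), and the 3 slides that held both groups gave -0.73, -1.02 and -1.25. At 1 week the difference was -0.77 ± 0.19 and did not pass (adjusted p = 0.217). LAT KO minus Y136F was 0.03 at 1 week, with a 95% interval from -0.37 to 0.43, and -0.13 at 4 weeks, from -0.53 to 0.27. Leaving out any 1 array kept the 4-week call. The other endophilins of the list were measured beside it, and in Y136F cells between times Sh3glb1 fell by 0.53 on the log2 scale (adjusted p = 0.0497).

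Slc22a2 was dim, with 27.5 to 217 intensity units, and had the largest Y136F difference of the 7 genes at 1 week. Its scaled log2 intensity at 1 week was -4.88, -4.48 and -4.30 in LAT KO, -4.61, -4.50 and -5.46 in Y136F, and -3.25, -2.89 and -3.09 in WT. After 4 weeks the values were -4.05, -4.53 and -4.04 in LAT KO, -3.98, -3.85 and -4.32 in Y136F, and -2.56, -2.71 and -2.84 in WT. All mutant arrays of both times lay below all WT arrays. The LAT KO mean was 2.78-fold below WT at 1 week and 2.83-fold below it at 4 weeks.

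In Y136F cells Slc22a2 fell against WT at both times, by 1.78 ± 0.28 on the log2 scale at 1 week (adjusted p = 0.0404, limma) and by 1.35 ± 0.28 at 4 weeks (adjusted p = 0.00988). Dim features shifted too: the median of the features within 0.5 of its mean brightness was -0.26 at 1 week and -0.31 at 4 weeks in the same contrasts. Every slide that held both groups gave a lower Y136F value, from -2.21 to -1.53 at 1 week and from -1.49 to -1.14 at 4 weeks. The 1-week difference was smaller with normexp background correction (-0.98) and with the authors' deposited log2 values (-1.01, adjusted p = 0.0677). The 1-week call held under 7 of 21 alternative settings and was lost without any 1 of the 6 arrays (adjusted p between 0.057 and 0.179), and the 4-week call without Y136F replicate 3 (0.0656). LAT KO against Y136F did not pass for Slc22a2, with an interval of the difference from -0.28 to 0.90 at 1 week and from -0.74 to 0.44 at 4 weeks.

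Slco3a1 was higher in both mutants than in WT cells. Its scaled log2 intensity at 1 week was 2.44, 2.19 and 1.84 in LAT KO, 2.28, 2.14 and 2.15 in Y136F, and 1.55, 1.36 and 1.75 in WT. The 4-week values were 2.24, 2.28 and 2.28 in LAT KO, 2.58, 2.10 and 2.62 in Y136F, and 1.07, 1.07 and 0.89 in WT. Every mutant array was above every WT array. The LAT KO mean was 1.52-fold above WT at 1 week and 2.39-fold above it at 4 weeks.

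Slco3a1 rose 2.69-fold in Y136F cells against WT at 4 weeks, with a log2 difference of 1.43 ± 0.16 (SE; adjusted p = 0.00011, limma). At 1 week the difference was 0.64 ± 0.16 and did not pass (adjusted p = 0.245). The 3 shared slides gave 1.04, 1.73 and 1.52 at 4 weeks, and the call held under all 20 alternative settings. WT cells themselves had a 4-week mean of 1.01 and a 1-week mean of 1.55, a difference of -0.54 ± 0.16 that did not pass (adjusted p = 0.149). LAT KO minus Y136F was -0.03 at 1 week, with a 95% interval from -0.38 to 0.31, and -0.17 at 4 weeks, from -0.51 to 0.17.

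Slc16a5 had the largest difference between the mutants at 4 weeks among the 7 genes. At 1 week its scaled log2 intensity was 0.01, 0.42 and 0.23 in LAT KO, 0.49, 0.17 and 0.76 in Y136F, and -0.09, -0.61 and -0.65 in WT. After 4 weeks they were 0.18, 0.68 and 0.06 in LAT KO, -1.78, -1.50 and -1.44 in Y136F, and -0.95, -0.87 and -1.06 in WT. Both mutants lay above WT at 1 week. At 4 weeks all LAT KO arrays were still above WT, and all Y136F arrays were below it.

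In Y136F cells Slc16a5 fell 4.13-fold at 4 weeks against 1 week, a log2 difference of -2.05 ± 0.20 (SE; adjusted p = 1.92e-05, limma) with no overlap of arrays. The arrays compared were not used in the choice of genes, though the SE and p rest on the spread over all 18 arrays. LAT KO cells were 3.69-fold higher than Y136F cells at 4 weeks (log2 difference 1.88 ± 0.20, adjusted p = 5.11e-05), and -0.25 ± 0.20 apart at 1 week (adjusted p = 0.857). Both calls held under all 20 alternative settings. Against WT, Y136F cells differed by 0.92 ± 0.20 at 1 week and by -0.62 ± 0.20 at 4 weeks, and neither passed (adjusted p = 0.163 and 0.117). The change of that difference between times was -1.54 ± 0.28 (adjusted p = 0.0169). Within slides, LAT KO minus Y136F at 4 weeks was 1.51 and 1.96, and the 1 slide with Y136F arrays of both times gave -1.67.

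Wnt10a, which was dim with 66.1 to 285 intensity units, changed with time in Y136F cells too, in the direction opposite to Slc16a5. Its scaled log2 intensity at 1 week was -4.09, -4.25 and -3.97 in LAT KO, -4.22, -4.22 and -3.92 in Y136F, and -2.84, -2.13 and -2.66 in WT. The 4-week values were -4.09, -4.33 and -4.44 in LAT KO, -3.26, -3.13 and -2.79 in Y136F, and -3.05, -2.34 and -3.24 in WT. At 1 week both mutants were far below WT and overlapped each other, whereas at 4 weeks Y136F arrays overlapped WT and LAT KO arrays were below both. The LAT KO mean was 2.94-fold below WT at 1 week and 2.65-fold below it at 4 weeks.

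In Y136F cells Wnt10a rose 2.08-fold at 4 weeks against 1 week (log2 difference 1.06 ± 0.26, SE, adjusted p = 0.0193, limma). Features of like brightness had a median change of 0.26 in that contrast. LAT KO cells were 2.34-fold below Y136F cells at 4 weeks (log2 difference -1.23 ± 0.26, adjusted p = 0.0113), and the difference at 1 week was 0.01, with a 95% interval from -0.54 to 0.57. Y136F minus WT was -1.57 ± 0.26 at 1 week (adjusted p = 0.0628) and -0.18 ± 0.26 at 4 weeks (0.731), and the change between times, 1.39 ± 0.37, did not pass (0.111). The rise over time was lost without Y136F replicates 1 or 2 of 1 week or 2 or 3 of 4 weeks (adjusted p between 0.057 and 0.0796). It was also lost with quantile normalization (0.71, adjusted p = 0.198), with the authors' deposited log2 values (0.55, 0.157) and with slide as a fixed term (1.13, 0.095). The call between mutants was lost without LAT KO replicates 2 or 3 or Y136F replicate 3 of 4 weeks (0.0551 to 0.067), with quantile normalization (-1.20, 0.0585) and with slide as a fixed term (-1.14, 0.05), and it held without both LAT KO arrays of doubtful sex label (-1.20, 0.0474).

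Ppm1h differed little at 1 week. Its brightest probe had scaled log2 intensities of 2.34, 2.68 and 2.31 in LAT KO, 2.61, 2.16 and 2.69 in Y136F, and 2.54, 2.23 and 2.18 in WT at that time. At 4 weeks it had 2.29, 2.73 and 2.33 in LAT KO, 1.63, 1.85 and 1.87 in Y136F, and 1.36, 1.51 and 1.33 in WT. LAT KO levels at 4 and 1 weeks overlapped, with a difference of 0.01 (95% interval -0.35 to 0.36), while all Y136F and all WT arrays of 4 weeks lay below those of 1 week. The LAT KO mean was 2.07-fold above WT at 4 weeks, and the log2 differences on the 3 probes were 1.05, 0.94 and 1.22.

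Ppm1h fell in Y136F cells at 4 weeks against 1 week (log2 difference -0.71 ± 0.17, SE, adjusted p = 0.0143, limma), and LAT KO cells were 1.59-fold above Y136F cells at 4 weeks (0.67 ± 0.17, adjusted p = 0.0316). When each probe was fitted as its own row, the other Ppm1h probes passed for the fall (-0.63 and -1.04, adjusted p = 0.0314 and 0.046, limma). Between mutants these probes gave 0.63 and 0.91 and did not pass (adjusted p = 0.0551 and 0.141). In WT cells the difference between times was -0.92 ± 0.17, which did not pass (adjusted p = 0.0918). The fall in Y136F cells was lost without Y136F replicates 1 or 3 of 1 week or 1 of 4 weeks (adjusted p between 0.0744 and 0.0799), and with slide as a fixed term (-0.50, 0.243). The difference between mutants was lost without any of 5 of its 6 arrays, all but LAT KO replicate 1 (0.0554 to 0.237), and without both LAT KO arrays of doubtful sex label (0.53, 0.182).

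**Figure D2:**
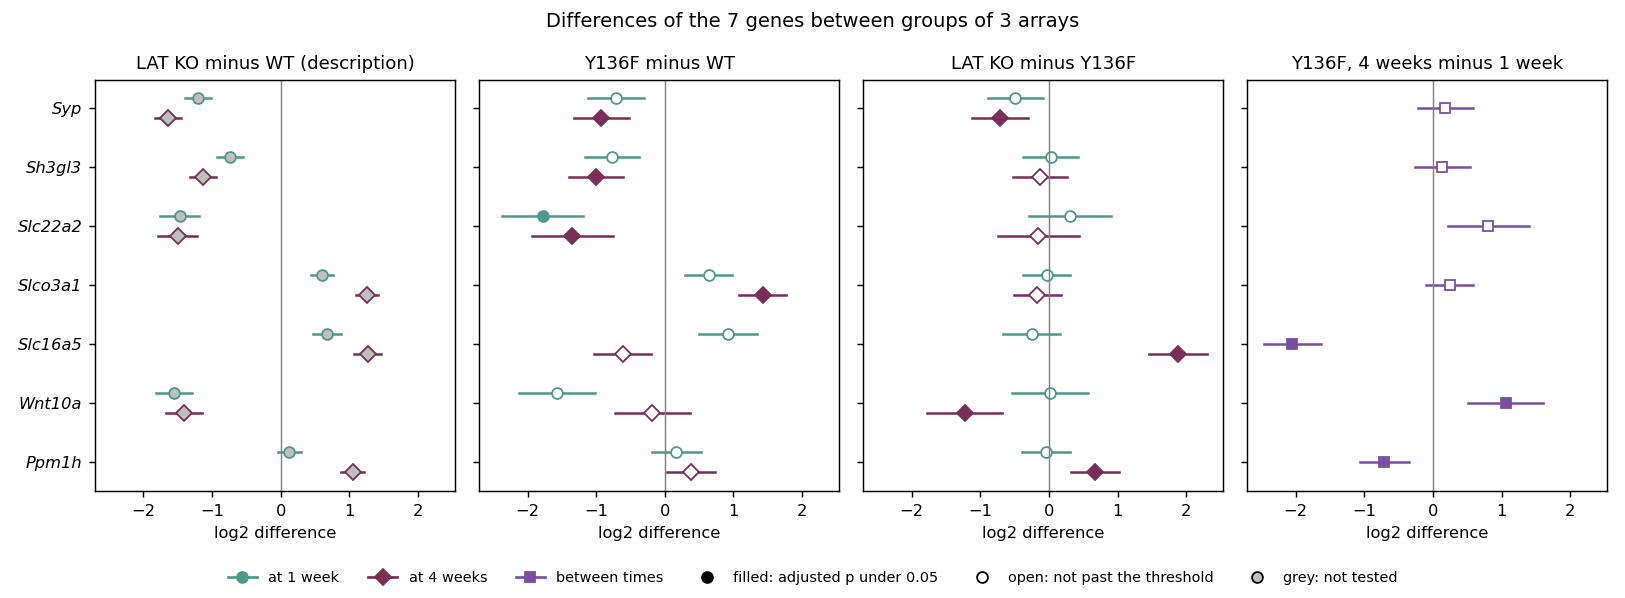
Log2 differences (horizontal axis) of the 7 genes in LAT KO minus WT, Y136F minus WT, LAT KO minus Y136F, and Y136F at 4 weeks minus 1 week. Bars are 1 SE in the first panel, which carries no test, and 95% intervals in the others, where filled points passed an adjusted p of 0.05. LAT KO minus Y136F lies near 0 at 1 week for 6 genes and away from 0 at 4 weeks for Syp, Slc16a5, Wnt10a and Ppm1h.

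Sex and genotype coincide in the 4-week comparisons of Y136F, since those mice were female and the LAT KO and WT mice male by the labels. The sex term was coded with the labels, which sex-linked genes contradict on 2 LAT KO arrays, and it rests on the 1-week mice, 1 of these 2 among them. Male labels at 1 week were only on LAT KO replicate 3 and WT replicate 3, where Xist was intermediate. With the sex term, Slco3a1 passed in Y136F against WT at 4 weeks (1.34, adjusted p = 0.0295). In the same fit the differences were -1.01 for Syp, -0.98 for Sh3gl3 and -1.17 for Slc22a2, and none of these 3 passed (adjusted p = 0.175, 0.191 and 0.334). In LAT KO against Y136F at 4 weeks Slc16a5 passed (2.03, adjusted p = 0.0054). Wnt10a (-1.24), Ppm1h (0.87) and Syp (-0.63) did not (adjusted p = 0.173, 0.127 and 0.321). The 3 calls in Y136F cells between times passed in that fit too. Both groups there held only female mice by the labels, so the term could not change these differences. Their passing is therefore no check of sex. A fit with the sex term and without the 2 arrays, chosen after seeing the data, passed and lost the same calls, with Slco3a1 at 1.44 (adjusted p = 0.00518) and Slc16a5 at 1.95 (0.00366).

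In LAT KO against Y136F cells at 1 week the 7 log2 differences ran from -0.49 for Syp to 0.31 for Slc22a2, and Syp was the only one of the 7 whose arrays did not overlap, as for 9.79% of all features. In LAT KO cells at 4 weeks against 1 week they ran from -0.18 to 0.35, and all 7 genes overlapped between times (2.19% of all features did not). In WT cells they ran from -0.92 for Ppm1h to 0.39 for Syp, with 5 of 7 genes not overlapping, as for 19.5% of all features. The share of all features without overlap was not computed for Y136F against WT, LAT KO against Y136F at 4 weeks or Y136F cells between times. Nothing is therefore read from the lack of overlap in those comparisons. The median over all features was 0.21 in WT cells and 0.13 in Y136F cells for 4 weeks minus 1 week. It was -0.19 for Y136F minus WT and -0.17 for LAT KO minus WT at 4 weeks. The features nearest in brightness to Syp, Slco3a1, Slc16a5 and Ppm1h had medians between -0.09 and 0.06 in these 2 comparisons with WT at 4 weeks. Those nearest to Sh3gl3, Slc22a2 and Wnt10a had medians of -0.12, -0.33 and -0.29 in LAT KO minus WT. In Y136F minus WT the medians for the same genes were -0.17, -0.31 and -0.29.

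Over the 18 arrays, Syp, Sh3gl3, Slc22a2 and Wnt10a correlated positively with each other and negatively with Slco3a1, Slc16a5 and Ppm1h. The pattern of Sh3gl3 was most like that of Slc22a2 (Pearson r = 0.91), and Syp correlated with Sh3gl3 (0.81), Wnt10a (0.77) and Slc22a2 (0.73). Slc16a5 and Ppm1h went together (0.84), and Slco3a1 ran against Sh3gl3 (-0.88) and Slc22a2 (-0.82). These values describe the arrays, which share groups, slides and the genes' selection, and carry no test.

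Likeness was ranked only among named genes with a value on all 18 arrays. Genes with an outlier value left out on any array, Lat among them, were not ranked. The pattern of Syp was most like those of Irf4 (0.91), Nr4a1 (0.87) and Egr2 (0.87). Irf4, Nr4a1 and Egr2 encode transcription factors that T cell receptor signals induce. Wnt10a was most like Nr4a1 (0.94), Egr3 (0.92) and Egr2 (0.86). Slc22a2 came next to Fosb (0.86) and Gm5458 (0.85) after Sh3gl3, and Sh3gl3 next to Gpx7 (0.84) and F11r (0.83). Slc16a5 was most like Pdk1 (0.96), a kinase that restrains pyruvate dehydrogenase, and then Trim12c and Fem1al (both 0.92). Slco3a1 was most like Khnyn (0.88), Grina and Ifitm3 (both 0.87), and Ppm1h most like Epb41, Fbxl12 and Smg5 (all 0.94). The correlations are across arrays whose group means differ, and no p is given.

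**Figure D3:**
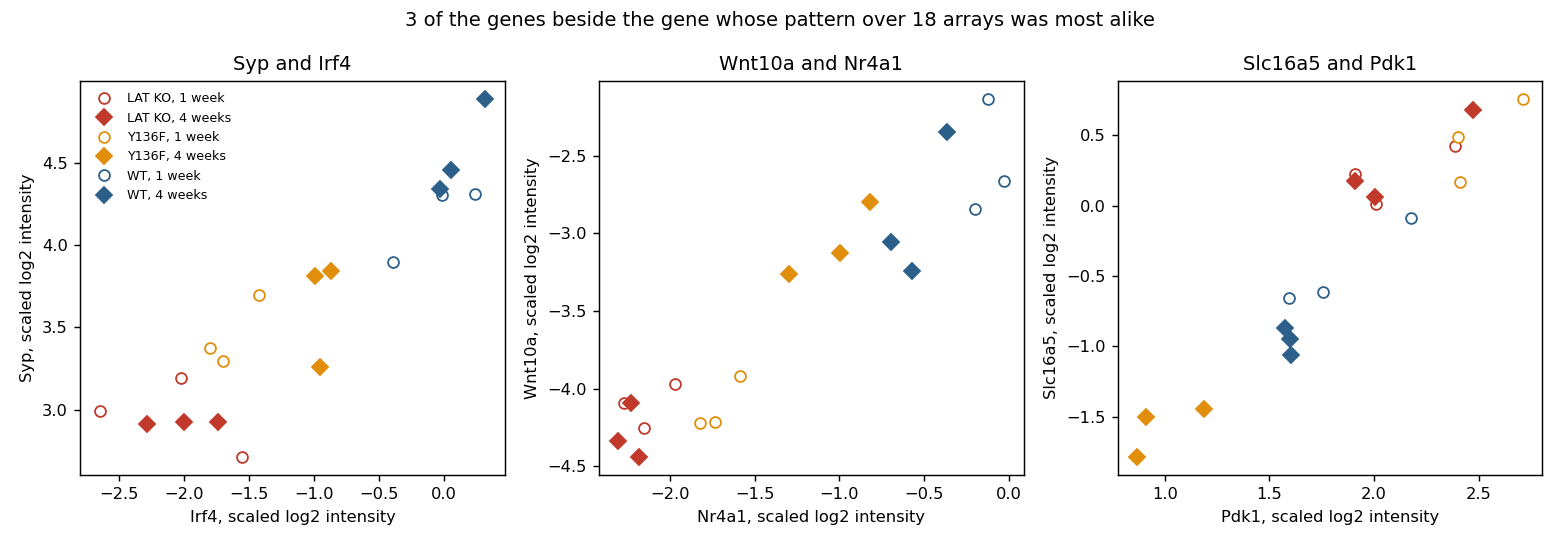
Scaled log2 intensity of Syp against Irf4, of Wnt10a against Nr4a1 and of Slc16a5 against Pdk1 (each axis is 1 gene), 1 point per array, open at 1 week and filled at 4 weeks. The Y136F arrays of 4 weeks overlap the WT arrays for Wnt10a, lie between LAT KO and WT for Nr4a1, Syp and Irf4, and lie lowest of all for Slc16a5 and Pdk1.

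Of 159 measured genes in the 7 lists of relatives and pathway genes, 1.26% passed in Y136F against WT at 4 weeks, beside 3.4% of all features, and 8.81% in Y136F cells between times, beside 7.67%. Of 160 genes, 1.88% passed in LAT KO against Y136F at 4 weeks, beside 3.38%. Of 49 measured genes of synaptic vesicles, fusion and endocytosis, 1 rose and none fell in Y136F against WT at 4 weeks, namely Rab3a, a vesicle GTPase (log2 difference 0.48, adjusted p = 0.0425, limma), with a list median of -0.02 beside -0.19 for all features. In LAT KO against Y136F at 4 weeks 1 of 49 was lower, Syt11, a synaptotagmin (-1.34, adjusted p = 0.0041). In Y136F cells between times 2 rose and 1 fell, with Syt11 at 1.24 (adjusted p = 0.00438). None passed at 1 week. Syp, which is not counted in the list, fell in Y136F against WT at 4 weeks.

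None of the 18 measured relatives of Slc22a2 passed in any of the 7 tested comparisons, and none of the 18 other Wnt ligands did. Among the SLC16 transporters, Slc16a3, a lactate exporter, rose in Y136F cells between times (0.72, adjusted p = 0.0163), in the opposite direction to Slc16a5, as 1 of 12 measured. Among the SLCO transporters, Slco4a1 rose in the same comparison (2.27, adjusted p = 0.0208), as 1 of 9. Among 16 PP2C phosphatases, Pdp1 (-0.79, adjusted p = 0.0109) and Ppm1b (-0.47, adjusted p = 0.0455) fell there, in the direction of Ppm1h. Of all features 7.67% passed in Y136F cells between times. In Y136F against WT at 4 weeks, where no member of these 3 lists passed, the list medians were -0.46 for Wnt ligands, -0.45 for SLCO and -0.28 for SLC22 transporters, beside -0.19 for all features and -0.31 for features of the brightness of Slc22a2.

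Of 37 measured Wnt receptors, regulators and targets, 4 rose and 3 fell in Y136F cells between times, where 7.67% of all features passed. Lef1, a transcription factor of the Wnt pathway, fell by 1.14 on the log2 scale (adjusted p = 0.00183, limma) and Nkd2, an inhibitor of Dishevelled, fell by 1.09 (0.0115). Rnf43, a ubiquitin ligase that removes Wnt receptors, rose by 1.00 (0.0123) and Ryk, a Wnt co-receptor, rose by 0.99 (0.0378). Rnf43 also rose in Y136F against WT at 4 weeks (1.38, adjusted p = 0.00208), as the 1 gene of the list to pass. In LAT KO against Y136F at 4 weeks Lef1 was higher (0.92, adjusted p = 0.0131) and Rnf43 lower (-0.96, adjusted p = 0.0251).

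Of the neighbouring genes, 1 passed. The 14 nearest measured named genes, 1 on each side of each of the 7, gave no call in 6 of the 7 tested comparisons. In Y136F cells between times, where 7.67% of all features passed, 1 did, Plp2 beside Syp (0.60, adjusted p = 0.0317). Syp itself did not pass there.

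**Figure D4:**
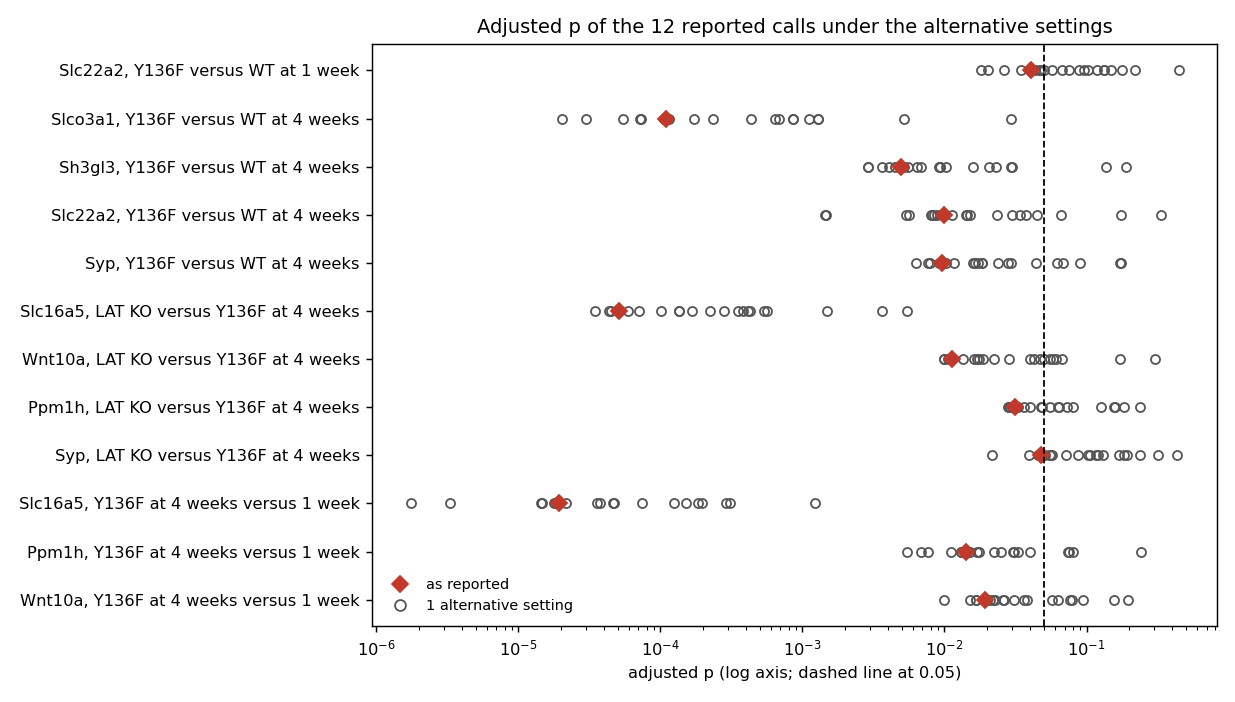
Adjusted p (horizontal log axis, dashed line at 0.05) of the 12 calls of the 7 genes, as reported (diamonds) and under each alternative setting (circles). The circles of Slco3a1 in Y136F against WT and of Slc16a5 in both of its comparisons stay left of the line, and those of Syp in LAT KO against Y136F lie mostly right of it.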

How the data were processed

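Cy3-labelled RNA of 18 mice was measured on single-colour Agilent 4x44k mouse arrays. Per the labels, the authors used Agilent Feature Extraction 10.5 and limma; per the file headers the extraction version was 10.5.1.1 and the deposited intensity used here is background-corrected and linear. The deposited series matrix holds the authors' log2 values, with column medians between 8.558 and 8.57 and no stated normalization, and served as an alternative. From the intensity, log2 values were taken and each array's 75th percentile over 43379 non-control spots was subtracted. Spots marked as outliers were dropped (7888 on 1 array, LAT KO 1 week replicate 3, and 187 to 952 on the others), and repeated spots of a probe averaged. Probes above background on fewer than 3 arrays were left out, and the brightest probe stood for its gene.

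Symbols came by accession from a RefSeq table of GRCm38.p6, which named 24844 of 41174 probes. The array design refers to mm9, so only RefSeq promoter coordinates are printed. limma 3.58.1 in R 4.3.3 fitted 6 group means with an intensity trend, two-sided, Benjamini-Hochberg adjusted over all features. Figures used matplotlib. The number of arrays limits the precision.

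The 7 genes, the lists and most tests were chosen with earlier results of these data known. Named beyond the 7 were the up to 4 list genes of smallest p past the threshold per list and comparison, the 3 named genes of most like pattern, the nearest neighbours and Lat. Whether replicate numbers pair the mice was not settled. The correlation of deviations between arrays of the same number ran from -0.45 to 0.525 and was not set beside arrays of unlike number. Alternatives covered background correction (normexp, offset 50, on median spot intensity, since the files hold no mean), normalization, filters, probes, slide, sex, a replicate block, the arrays fitted and each array left out. Sex as a term without the 2 contradicted arrays was added after seeing the data.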

Additional observations from a re-analysis of the deposited data

Results flagged for a closer look

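Slc16a5 was the 1 gene of the 7 whose Y136F difference from WT passed a test of its change between times. The share of all features that passed this test is not given here, so nothing is read from the count. The test uses the WT arrays through which the genes were chosen, and it was not repeated under the alternative settings. The difference was 0.92 on the log2 scale at 1 week and -0.62 at 4 weeks, a change of -1.54 ± 0.28 (SE; adjusted p = 0.0169, limma). All 3 Y136F arrays lay above all 3 WT arrays at 1 week and below all 3 at 4 weeks. The 1-week WT mice included 2 females and 1 male by the labels and the 4-week WT mice were all male. With sex as a term the Y136F difference was 0.87 at 1 week and -0.76 at 4 weeks.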

How the results depend on the processing

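How many of the 7 genes passed changed with the settings, and the cause was not tested. Some changes were small beside the reported count. Syp was lost in Y136F against WT at 4 weeks, and Wnt10a in Y136F cells between times, with quantile normalization and the authors' deposited values. Syp was lost in LAT KO against Y136F at 4 weeks with normexp, the deposited values, no filter on dim probes, outlier spots kept and only the compared arrays. The larger changes follow. In Y136F against WT at 1 week, where 1 passed, 0 passed with quantile normalization, the authors' deposited values, no filter on dim probes, outlier spots kept, sex as a term (with or without the 2 LAT KO arrays whose sex-linked genes go against the label), only the compared arrays or female mice only. There, 2 passed with slide as a random block, no intensity trend, or without those 2 arrays. In Y136F against WT at 4 weeks, where 4 passed, 1 did with sex as a term, in all arrays or without those 2. In LAT KO against Y136F at 4 weeks, where 4 passed, 2 did with quantile normalization, no intensity trend or without those 2 arrays, and 1 with slide as a fixed term or, in both sets of arrays, sex as a term. In Y136F cells between times, where 3 passed, 1 did with slide as a fixed term, and in WT cells, where 0 passed, 1 did without those 2 arrays. Leaving out 1 array at a time gave 0 genes each time in Y136F against WT at 1 week, 3 to 4 at 4 weeks, 1 to 3 in LAT KO against Y136F at 4 weeks and 1 to 2 in Y136F cells between times.

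With the replicate number as a replicate block, 1, 4, 0, 3, 3, 0 and 0 genes passed in the 7 tested comparisons, in the order of the report. Syp was lost in LAT KO against Y136F at 4 weeks (adjusted p = 0.0718), and no other call of the 7 genes changed.

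Reversed signs concerned small differences that never passed. Sh3gl3 in Y136F cells between times was -0.0016 with quantile normalization and -0.083 with slide as a fixed term, and 0.0256 to 0.296 with 1 array left out. Sh3gl3 and Slc22a2 in LAT KO against Y136F at 4 weeks were 0.0056 and 0.008 without the 2 LAT KO arrays, and with 1 array left out ran from -0.2135 to 0.0056 and from -0.2899 to 0.008. Wnt10a in Y136F against WT at 4 weeks ran from -0.3628 to 0.0878 with 1 array left out. The sign in LAT KO against Y136F at 1 week turned under 8 of 20 alternatives for Sh3gl3, 2 for Slc22a2, 5 for Slco3a1, 1 for Slc16a5, 6 for Wnt10a (-0.48 to 0.18) and 10 for Ppm1h. In LAT KO cells between times it turned under 4 for Syp, 6 for Sh3gl3, 1 for Slco3a1, 4 for Slc16a5 and 8 for Ppm1h.

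LAT KO minus WT kept its sign for all 7 genes under all 20 alternatives. This contrast chose the genes, so the kept sign is a description and nothing is read from it. For Ppm1h at 1 week the difference was small, from 0.011 to 0.299. The dim genes shrank most: Slc22a2 at 1 week was -0.82 and Wnt10a at 4 weeks -0.99 with normexp, and -1.07 and -0.96 with the deposited values. Over all features, the number passing ran from 79 to 1516 in Y136F against WT at 4 weeks (1072 as reported), from 165 to 1413 in LAT KO against Y136F at 4 weeks (1066) and from 617 to 5562 in Y136F cells between times (2418). It ran from 0 to 21 in Y136F against WT at 1 week (5), from 0 to 1 in LAT KO against Y136F at 1 week (0), from 0 to 24 in LAT KO cells (0) and from 0 to 166 in WT cells between times (0). With 3 arrays a group, a difference that did not pass is not shown to be absent.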
